A study of Homo sapiens with 4 samples.

Results

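The genes described here are 7 human genes of innate sensing and antimicrobial defence: the receptor genes TLR2 and CD14, the peptidoglycan recognition protein genes PGLYRP3 and PGLYRP4, the siderophore-binding lipocalin LCN2, and the antiprotease genes PI3 (elafin) and SLPI. They were chosen from array differences already known for these same cultures, namely the difference of each exposed culture from its control and of one control from the other, so these values are given as a description and carry no test. Of 18417 genes with a probe set of their own, 10373 reached the brightness filter on at least 1 array, and all 7 genes were among them. The filter was an intensity of 155, the median of all gene-naming values.

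The cells were MCF12A, an immortalised, non-tumorigenic human breast epithelial line, grown as monolayers in medium that held hydrocortisone, insulin, cholera toxin, epidermal growth factor and horse serum. One culture received 25 mM ethanol for 1 week and was paired with an unexposed culture, control 1. A second received 2.5 mM acetaldehyde, the first oxidation product of ethanol, for 1 week and was paired with another unexposed culture, control 2. Each of the 4 cultures was read on 1 Affymetrix Human Gene 1.0 ST array, so no difference could be set against a spread between replicates, and precision is limited by the number of arrays.

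Toll-like receptor 2 recognises bacterial lipoproteins at the cell surface and signals through the adaptor MYD88 to NF-kB, and CD14 hands microbial ligands to it and to TLR4. Peptidoglycan recognition proteins bind the bacterial cell wall and are bactericidal, and PGLYRP3 and PGLYRP4 are made by skin and mucosal epithelium. Lipocalin 2 withholds iron from bacteria by binding their siderophores. Elafin and SLPI (secretory leukocyte peptidase inhibitor) are small secreted proteins with whey acidic protein (WAP) domains that inhibit neutrophil elastase and also have antimicrobial activity.

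With ethanol the receptors and the secreted effectors lay on opposite sides of control 1. TLR2 was 5.40-fold and CD14 1.52-fold higher, whereas PGLYRP3 was 19.2-fold, PI3 9.62-fold, PGLYRP4 2.27-fold, SLPI 2.20-fold and LCN2 1.68-fold lower. With acetaldehyde the same 5 effector genes were lower than in control 2, by 1.24-fold to 2.68-fold, CD14 was 1.52-fold lower and TLR2 1.25-fold higher. In bulk RNA such as this, fewer cells of a type and less RNA per cell cannot be told apart.

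In counts, ethanol put 4 of the 7 genes at least 2-fold below control 1 and 1 at least 2-fold above it, against 2.11% and 1.17% of all 10373 kept genes. With acetaldehyde 3 of 7 were at least 2-fold lower and 0 at least 2-fold higher, against 0.212% and 0.0289%. Control 2 was at least 2-fold below control 1 for 1 gene and at least 2-fold above it for 1 gene, against 4.85% and 4.25%. The genes had been picked on these very differences, so nothing is read from the excess over the background. The median log2 difference of the 7 genes was -1.14 with ethanol, -0.61 with acetaldehyde and 0.27 between the controls, against 0.05, 0.00 and 0.06 over all kept genes.

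**Figure D1:**
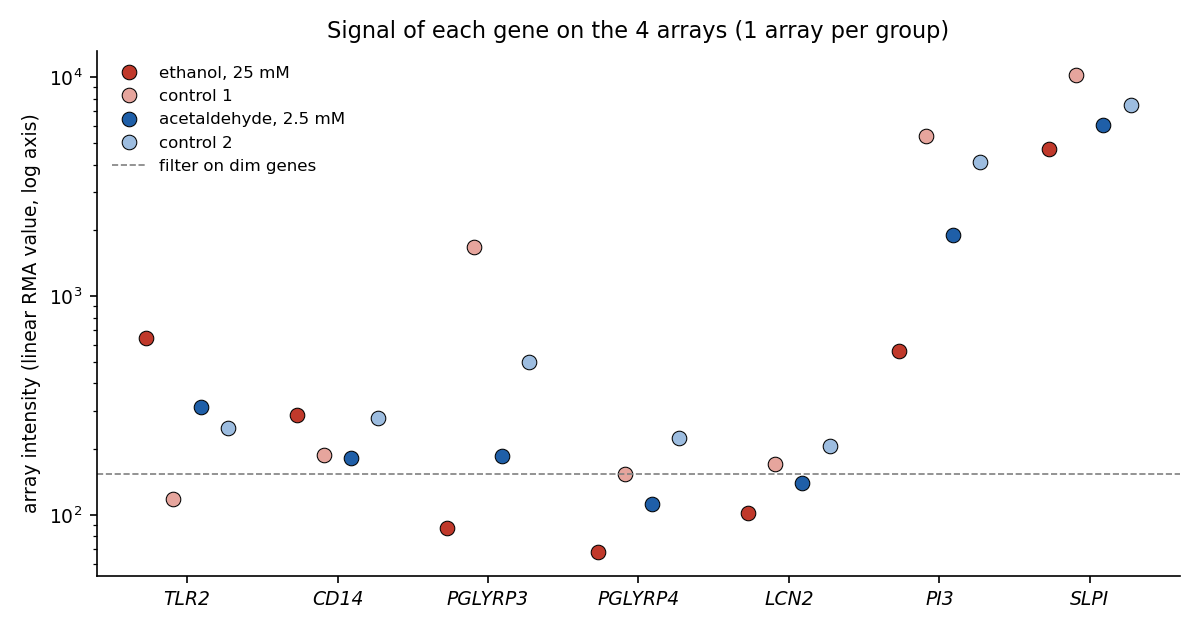
Array intensity (linear values, log axis) of the 7 genes on the ethanol, control 1, acetaldehyde and control 2 arrays, 1 point per array; the dashed line is the filter intensity of 155. PI3 and SLPI stay above that line on all 4 arrays, whereas PGLYRP4 is above it only in control 2, at 226.

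TLR2 (probe set 8097903) read 643 with ethanol (array intensity), against 119 in control 1. It had 313 with acetaldehyde, against 251 in control 2. Ethanol was thus the brightest of the 4 arrays for this receptor and control 1 the dimmest, below the filter. On the log2 scale the ethanol difference was 2.43, rank 3 from the highest among 10373 genes. The controls themselves stood 1.08 apart, with control 2 the higher, so against control 2 the ethanol culture was 2.56-fold higher in place of 5.40-fold. The acetaldehyde difference of 0.32 was smaller than the gap between the controls.

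CD14 (probe set 8114612) gave 287 with ethanol, against 189 in control 1. It gave 183 with acetaldehyde, against 279 in control 2. The log2 differences of 0.60 and -0.61 were nearly equal in size and opposite in sign, and the control gap was of the same order (0.56, control 2 higher). The ethanol value was within 1.03-fold of control 2 and the acetaldehyde value within 1.03-fold of control 1. The 4 CD14 values therefore formed a bright pair, ethanol with control 2, and a dim pair, acetaldehyde with control 1.

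CD14 is also a monocyte gene, so markers of such cells were read beside it. Of 10 monocyte or macrophage markers 2 were bright enough to be kept, CD68 (0.12 with ethanol, -0.14 with acetaldehyde) and TYROBP (-0.20 and -0.15), in log2 differences. PTPRC, the pan-leukocyte marker CD45, had an intensity of 10.3 with ethanol, 10.9 in control 1, 14.0 with acetaldehyde and 15.9 in control 2, below the lower quartile of each array (29.7 to 42.3). The summed intensity of the 10 markers was 2255 with ethanol, against 2101 in control 1, and 2332 with acetaldehyde, against 2559 in control 2. Most of each sum was CD68 alone (1764 with ethanol, 1622 in control 1, 1742 with acetaldehyde, 1917 in control 2). Of 6 neutrophil and 6 fibroblast markers, 2 each were kept, with summed intensities over the measured ones of 438 and 388 with ethanol, against 515 and 474 in control 1. With acetaldehyde they summed to 580.4 and 733, against 637 and 759.6 in control 2. All 8 measured epithelial markers were kept, and their summed intensity was 30561 with ethanol, 29838 in control 1, 24369.9 with acetaldehyde and 26596 in control 2. Single epithelial markers differed in direction. KRT14, a basal keratin, was lower in both pairs (-0.66 with ethanol, -0.95 with acetaldehyde), KRT8 (0.75 and 0.22) and EPCAM (0.70 and 0.35) were higher, and KRT19 was at -0.15 and -0.54. KRT19 passed the filter in control 2 alone (184), so that lower values elsewhere were partly fixed by the filter. KRT14 was also 3.20-fold, CDH1 2.51-fold and EPCAM 2.32-fold lower in control 2 than in control 1. Of the kept neutrophil and fibroblast markers, AZU1 was at -0.17 and -0.18, ELANE at -0.23 and -0.15, COL1A1 at -0.25 and -0.14 and DCN at -0.01 and 0.08, with a control gap of 2.34 for DCN. DCN passed the filter only with acetaldehyde (187) and in control 2 (177), so that the direction of its gap was partly fixed by the filter. The part of these marker differences in the values of the 7 genes was not tested. Any part of other cells in the CD14 values was not tested.

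PGLYRP3 and PGLYRP4 are neighbouring genes on chromosome 1 in the epidermal differentiation region. Their start regions are printed here because the genes lay next to each other and each read lower with both exposures. PGLYRP4 passed the filter in control 2 alone, so its lower values were partly fixed. Between the controls the genes differed in direction (-1.74 for PGLYRP3, 0.55 for PGLYRP4). A link between shared bases and array values was not tested. Each window runs from 250 bases before to 50 after the gene's start, 5′ to 3′ on the gene's strand, from RefSeq on GRCh38.p14 (PGLYRP3, chr1:153312903-153313202, minus strand; PGLYRP4, chr1:153348792-153349091, minus strand). Capitals mark the longest run of bases that is identical in both.
PGLYRP3: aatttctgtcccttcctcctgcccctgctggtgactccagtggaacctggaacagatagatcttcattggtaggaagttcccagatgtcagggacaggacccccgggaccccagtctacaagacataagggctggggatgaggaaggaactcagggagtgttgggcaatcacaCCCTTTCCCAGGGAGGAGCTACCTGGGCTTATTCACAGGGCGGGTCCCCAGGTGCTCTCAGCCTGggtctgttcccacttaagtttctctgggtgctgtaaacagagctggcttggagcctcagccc
PGLYRP4: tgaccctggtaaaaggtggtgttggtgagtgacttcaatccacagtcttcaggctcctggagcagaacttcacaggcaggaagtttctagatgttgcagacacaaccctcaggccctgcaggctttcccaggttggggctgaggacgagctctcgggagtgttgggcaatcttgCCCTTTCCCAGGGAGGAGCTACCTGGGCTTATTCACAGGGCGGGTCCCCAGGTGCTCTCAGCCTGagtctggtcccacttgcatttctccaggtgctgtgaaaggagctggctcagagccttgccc
The shared run is 65 bases long and starts at base 174 of the PGLYRP3 window and base 175 of the PGLYRP4 window. Over the whole windows, aligned end to end, 222 of 315 aligned columns were identical (70.5%). For the other 9 pairs among the 5 members whose window was found (TLR2, CD14, PGLYRP3, PGLYRP4 and LCN2), identity was 44.0% to 49.5% and the longest shared run 8 to 10 bases.

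PGLYRP3 (probe set 7920220) read 87.4 with ethanol, against 1676 in control 1. It read 187 with acetaldehyde, against 500.1 in control 2. Both exposed arrays lay below both controls. The log2 differences of -4.26 and -1.42 ranked 8 and 3 from the lowest among all kept genes. The controls differed by 1.74, control 2 being 3.35-fold lower, so the ethanol culture was 5.72-fold below control 2 in place of 19.2-fold below its own control. The ethanol value also lay below the filter intensity, where sizes are least certain.

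PGLYRP4 (probe set 7920228) read 68.1 with ethanol, against 154 in control 1. It read 113 with acetaldehyde, against 226 in control 2. It was dim throughout and passed the filter on the control 2 array alone, so that a lower value elsewhere was partly fixed by the filter. The log2 differences were -1.18 with ethanol and -1.00 with acetaldehyde, the second just at 2-fold. Unlike PGLYRP3, it was higher in control 2 than in control 1, by 0.55. PGLYRP3 and PGLYRP4 are paralogues, and cross-hybridisation between their probes was not tested. The other members of the family, PGLYRP1 and PGLYRP2, had log2 differences of -0.09 and -0.74 with ethanol and -0.15 and -0.31 with acetaldehyde, and PGLYRP2 was too dim to be kept. PGLYRP1 also passed the filter in control 2 alone (166).

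LCN2 (probe set 8158167) had 102 with ethanol, against 172 in control 1. It had 141 with acetaldehyde, against 208 in control 2. Both exposed values lay below the filter intensity and below both controls, and the controls were within 0.27 of each other on the log2 scale. The log2 differences were -0.75 and -0.56, under 2-fold in either pair. Against control 2 the ethanol culture was 2.03-fold lower. The signal passed the filter through the 2 controls alone, which limits what these sizes can show.

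The start region of LCN2 is shown because it is a well-known NF-kB-dependent gene and NF-kB components were measured here; the window is from RefSeq, GRCh38.p14, chr9:128149203-128149502, plus strand, and capitals mark the match to the NF-kB consensus motif, which lies on the opposite strand.
LCN2: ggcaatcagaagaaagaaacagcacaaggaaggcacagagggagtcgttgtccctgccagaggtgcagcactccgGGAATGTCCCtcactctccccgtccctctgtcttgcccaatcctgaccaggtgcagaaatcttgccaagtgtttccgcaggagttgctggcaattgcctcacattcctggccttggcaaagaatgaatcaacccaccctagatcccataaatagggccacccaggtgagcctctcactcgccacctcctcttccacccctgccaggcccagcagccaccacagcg
The consensus of 10 letters was found in the windows of LCN2 (first base at position -175) and PGLYRP3 (-178), 2 of the 5 members with a window, against 10.8% of 27305 RefSeq windows of the same length. The C/EBP motif TTNNGNAA was found in 4 of 5 (all but TLR2), against 37.2%, and at nearly the same place in PGLYRP3 (-90) and PGLYRP4 (-89). The AP-1 motif TGANTCA was found in CD14 and LCN2 (7.76% of windows), the GC box GGGCGG in TLR2, PGLYRP3 and PGLYRP4 (44.6%), and the TATA box TATAAA in 0 of 5 (3264 windows). Both strands were searched, and a match describes letters in the window and no more. The GC box of PGLYRP3 and PGLYRP4 lies inside their shared run.

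PI3, the gene of elafin (probe set 8062927), gave 563 with ethanol, against 5416 in control 1. It gave 1911 with acetaldehyde, against 4120.1 in control 2. All 4 values were well above the filter, and both exposed cultures were below both controls. The controls were 1.31-fold apart, whereas the exposed cultures were 9.62-fold and 2.16-fold below their own. In log2 terms these differences were -3.27 and -1.11, ranks 24 and 8 from the lowest. Exchanging the controls left the ethanol culture 7.32-fold and the acetaldehyde culture 2.83-fold below.

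SLPI (probe set 8066493) gave 4686 with ethanol, against 10297 in control 1. It gave 6049.8 with acetaldehyde, against 7484 in control 2. The order of the arrays matched that of PI3, with ethanol lowest, then acetaldehyde, then control 2, then control 1, but the range was narrower. The log2 difference was -1.14 with ethanol and -0.31 with acetaldehyde, and the latter was smaller than the control gap of 0.46. Against control 2 the ethanol culture was 1.60-fold lower, short of 2-fold.

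**Figure D2:**
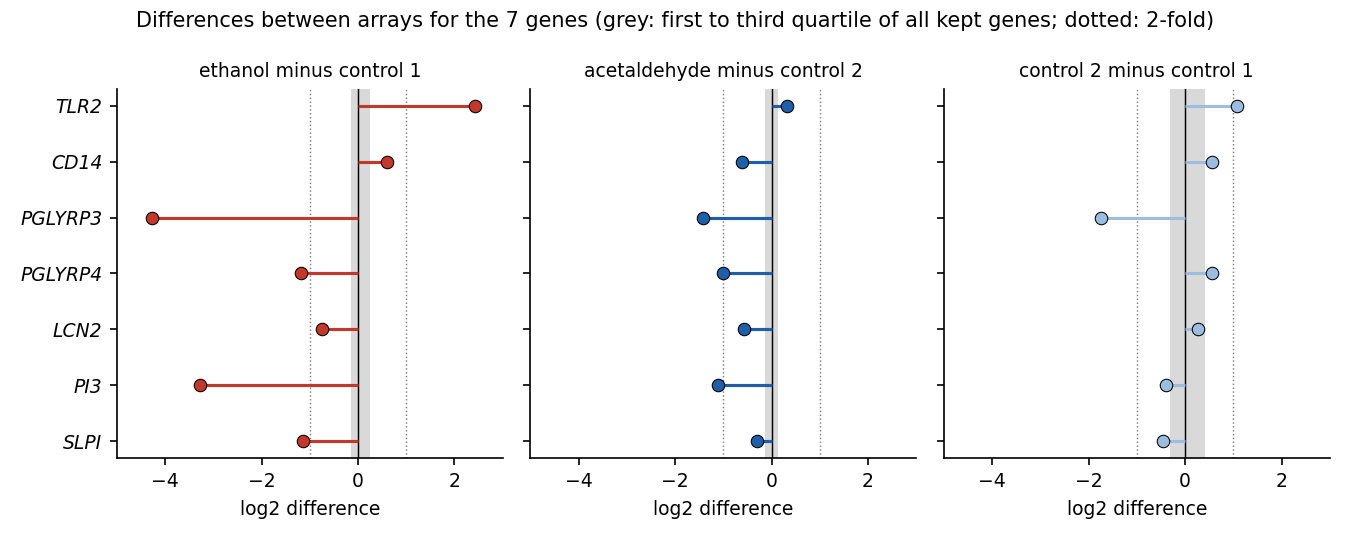
Log2 differences of the 7 genes for ethanol minus control 1, acetaldehyde minus control 2 and control 2 minus control 1; grey bands span the first to the third quartile of all kept genes and dotted lines mark 2-fold. PGLYRP3 (-4.26) and PI3 (-3.27) reach furthest below 0 with ethanol and TLR2 (2.43) furthest above it.

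Set against the controls, 5 of 7 genes were below both controls with ethanol and 2 above both, against 28.1% and 35.2% of all kept genes. With acetaldehyde 6 were below both and 1 above both, against 24.9% and 30.1%. For CD14 the distance to the nearer control was 0.04 with ethanol and -0.05 with acetaldehyde, so its place outside the controls rests on very little. The ethanol difference was larger in size than the gap between the controls for all 7 genes, against 32.1% of kept genes. The acetaldehyde difference was larger than that gap for 4 of 7 (CD14, PGLYRP4, LCN2 and PI3), against 20.7%. Control 1 enters both the ethanol difference and the gap, and control 2 both the acetaldehyde difference and the gap. The 7 genes were picked on these same differences, and PGLYRP4 and LCN2 passed the filter through controls alone. Nothing is therefore read from these counts beside the shares of all kept genes.

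The direction of control 2 against control 1 split the genes in another way. TLR2, CD14, PGLYRP4 and LCN2 were higher in control 2 and PGLYRP3, PI3 and SLPI lower. PGLYRP4 and LCN2 were thus lower with either exposure yet higher in control 2 than in control 1. The arrays of the ethanol pair and of the acetaldehyde pair appear to have been scaled separately by the authors (median intensities over all probe sets of 90.2 and 92.2 in the first pair, 113 and 114 in the second), which bears on every value set across the pairs. With all 4 arrays scaled together, the gap between the controls was 0.93 for TLR2, -1.67 for PGLYRP3 and 0.13 for LCN2.

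**Figure D3:**
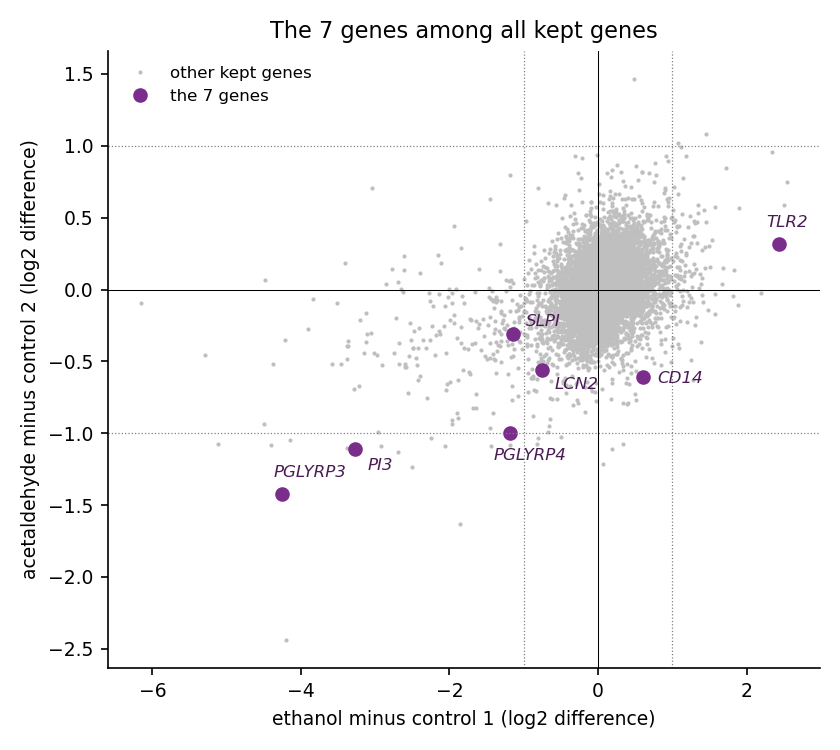
Each point is 1 kept gene, with its log2 difference for ethanol minus control 1 on the horizontal axis and for acetaldehyde minus control 2 on the vertical axis; the 7 genes are purple and dotted lines mark 2-fold. PGLYRP3, PI3 and PGLYRP4 lie at or beyond 2-fold lower on both axes, and CD14 is higher on one axis (0.60) and lower on the other (-0.61).

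The doses of the agents differed, so their values stand side by side without a test of one against the other. The log2 differences with ethanol and with acetaldehyde were -4.26 and -1.42 for PGLYRP3 and -3.27 and -1.11 for PI3. For PGLYRP4 (-1.18 and -1.00) and LCN2 (-0.75 and -0.56) the sizes were close. CD14 was the 1 gene of the 7 whose differences had opposite signs.

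Genes with the nearest pattern were found by the distance between their 3 log2 differences (ethanol, acetaldehyde and control gap, over 4 arrays) and those of each gene. Nearest to TLR2 were the protease inhibitor SERPINA1 (distance 0.52) and the adhesion molecules NRCAM (0.60) and MCAM (0.77). Nearest to PGLYRP3 were the envelope precursor SPRR1B (0.49), the calcium-binding CALB1 (0.73) and the serpin SERPINB13 (0.95). Nearest to PI3 were the epidermal transcription factor ZNF750 (0.63), the stress keratin KRT16 (0.81) and the aldehyde dehydrogenase ALDH3B2 (1.08). In these 3 cases few genes came close, since 6, 3 and 2 genes lay within a distance of 1.

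PGLYRP4 had 75 genes within a distance of 1, led by PROM2 (0.35), NIPAL4 (0.54) and C1orf74 (0.59). More genes lay near the other 3. SLPI had 887, led by the retinoic acid receptor RARG (0.11), the kinase MAPK3 (0.14) and SLC22A23 (0.17). LCN2 had 3347, led by RTL8A (0.17), C1orf74 (0.19) and PCDHB14 (0.23), and CD14 had 4350, led by CATSPERH (0.20), TSPAN1 (0.23) and NTN4 (0.23). Among the 7 genes themselves the closest pair was PGLYRP4 with LCN2 (0.68), then LCN2 with SLPI (0.87), while PGLYRP3 stood 3.86 from PGLYRP4 and PI3 stood 2.28 from SLPI. The genomic neighbours were thus not each other's nearest in pattern.

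**Figure D4:**
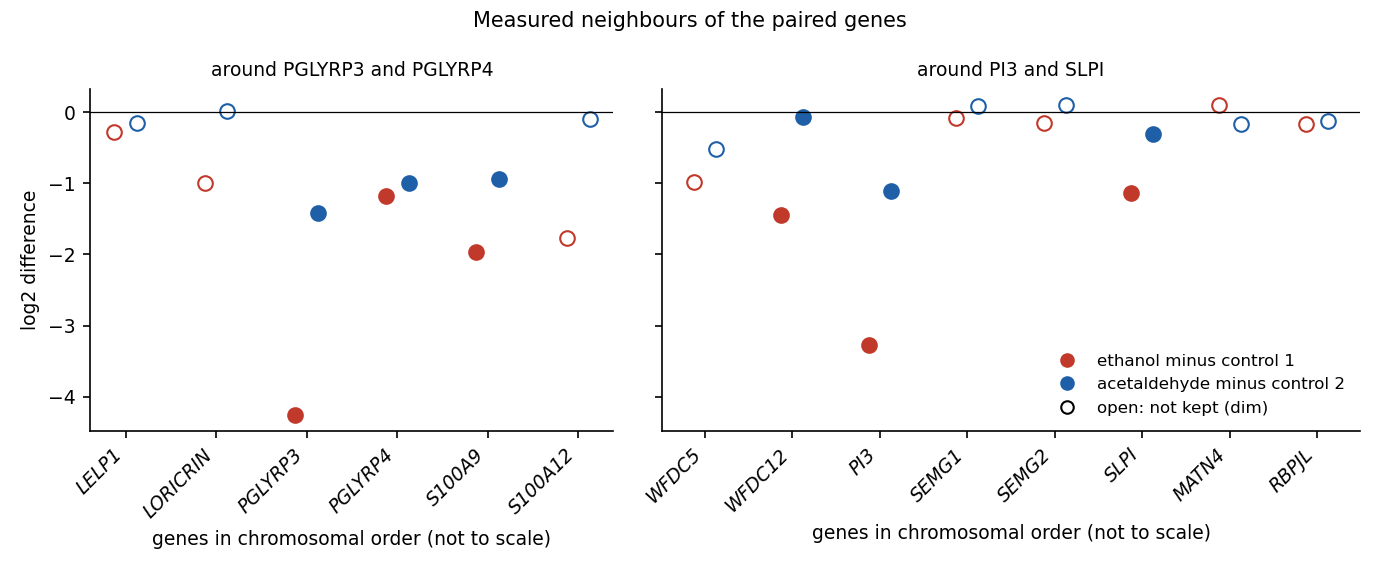
Log2 differences with ethanol (red) and acetaldehyde (blue) for the genes next to PGLYRP3 and PGLYRP4 and next to PI3 and SLPI, in chromosomal order and not to scale; open points are genes too dim to be kept. S100A9 lies low beside PGLYRP4 (-1.96 with ethanol), and the SEMG1 and SEMG2 genes between PI3 and SLPI lie near 0.

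On chromosome 1 the measured neighbours of the pair were S100A9, a calprotectin subunit that binds zinc and manganese, and, too dim to be kept, S100A12, LORICRIN and LELP1. S100A9 had 448 with ethanol, against 1747 in control 1. It had 1188 with acetaldehyde, against 2274 in control 2, log2 differences of -1.96 and -0.94. LORICRIN, a major cornified envelope protein, was at -0.99 and 0.02 and S100A12 at -1.77 and -0.10.

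On chromosome 20, PI3 and SLPI flank the semen coagulum genes SEMG1 and SEMG2, which had intensities of 15.8 to 35.4 over the 4 arrays and log2 differences within 0.15 of 0 in both pairs. On the other side of PI3, WFDC12, another WAP-domain gene, had 70.1 with ethanol, against 189.6 in control 1. It had 109 with acetaldehyde, against 114 in control 2. WFDC12 was therefore low with ethanol (-1.44) and near its control with acetaldehyde (-0.07). It passed the filter on the control 1 array alone, so that a lower value elsewhere was partly fixed by the filter. WFDC5, too dim to be kept, was at -0.98 and -0.51.

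Beyond SLPI, MATN4 and RBPJL were too dim to be kept, at 0.11 and -0.17 with ethanol and at -0.17 and -0.12 with acetaldehyde.

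The remaining genes, TLR2, CD14 and LCN2, have no other member beside them. Next to TLR2, TMEM131L was at 0.78 with ethanol and -0.06 with acetaldehyde, in log2 differences. The other neighbours of TLR2 were too dim to be kept: RNF175 at 0.86 and 0.72, MND1 at 0.68 and 0.15, and SFRP2 at -0.41 and -0.28. RNF175 was thus higher in both pairs, and with acetaldehyde by more than TLR2 (0.32). Next to CD14 the mitochondrial subunit NDUFA2 was at 0.46 and -0.00, TMCO6 at -0.14 and -0.22, SLC35A4 at -0.34 and -0.37 and IK at 0.22 and 0.07. Next to LCN2 the prostaglandin synthase PTGES2 was at -0.10 and -0.18, BBLN at -0.42 and -0.15, CIZ1 at 0.18 and 0.02, and SLC25A25, too dim to be kept, at -0.50 and 0.42.

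The pathway downstream of TLR2 was read from a list of 28 other Toll-like receptors, co-receptors and adaptors, 23 of them measured and 11 kept. Over all kept genes 2.11% were at least 2-fold lower and 1.17% higher with ethanol, and 0.212% and 0.0289% with acetaldehyde. Between the controls the shares were 4.85% and 4.25%. Of the 11, 0 were at least 2-fold higher or lower in any of the 3 comparisons, which says little in so short a list. The median log2 difference was 0.04 with ethanol, which turned to -0.03 with all arrays scaled together and to -0.01 after centring, and -0.01 with acetaldehyde, which was 0.00 against control 1. MYD88, the adaptor of most Toll-like receptors, had 579.9 with ethanol, against 833 in control 1. It had 401 with acetaldehyde, against 456 in control 2. These are log2 differences of -0.52 and -0.18. The gap between the controls was larger (-0.87), and against control 2 the ethanol culture was higher (0.35). TOLLIP, an inhibitor of the pathway, was at -0.41 and -0.11, CNPY3, a chaperone of Toll-like receptors, at 0.48 and -0.01, and the kinase MAP3K7 at 0.20 and 0.20.

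Besides TLR2, 7 of 9 other Toll-like receptors had a probe set of their own, and 0 of these 7 were bright enough to be kept. TLR3 and TLR4, named after their values were seen, had intensities of 113 and 103 with ethanol, against 53.8 and 60.1 in control 1. With acetaldehyde they had 94.2 and 47.2, against 88.8 and 37.8 in control 2. TLR6, one of the partners of TLR2 in its heterodimers, had 111 with ethanol, 89.6 in control 1, 118 with acetaldehyde and 111 in control 2, and TLR1, the other, stayed between 12.7 and 19.6.

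**Figure D5:**
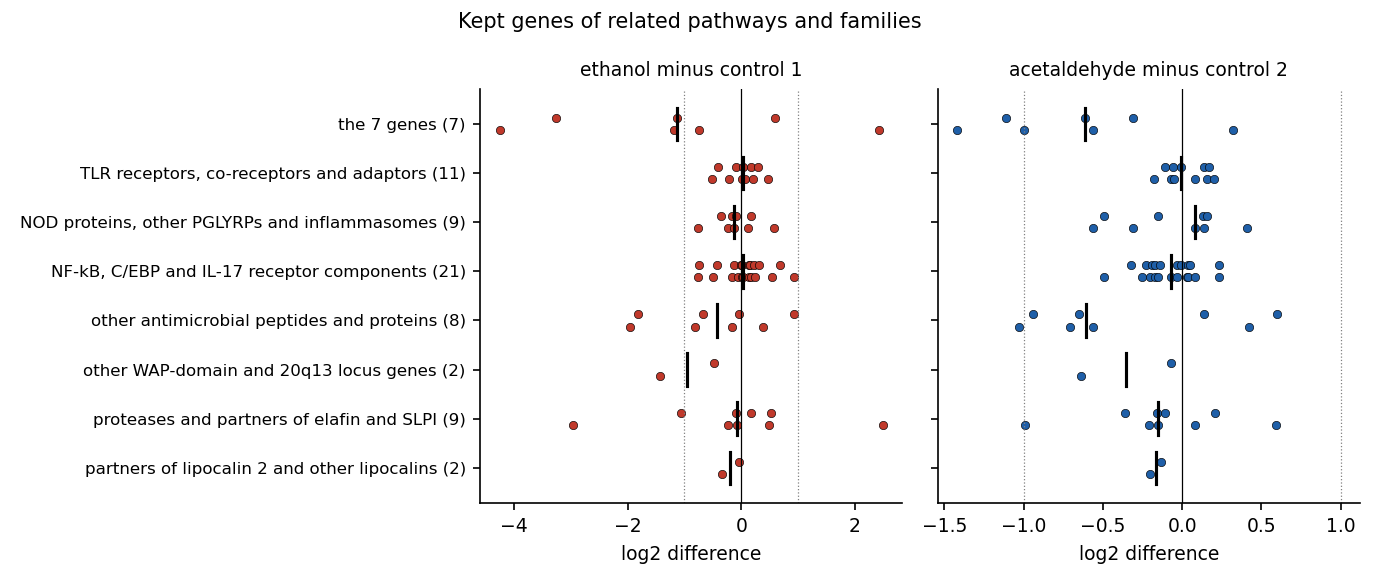
Log2 differences of the kept genes of each list for ethanol minus control 1 (left) and acetaldehyde minus control 2 (right; the panels have separate scales), with the number of kept genes in brackets, a bar at each median and dotted lines at 2-fold. The Toll-like receptor, NOD and NF-kB lists stay inside 2-fold in both panels, unlike S100A9 (-1.96), TGM1 (-2.96) and TGM2 (2.50) in other lists.

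Of 17 NOD proteins, other peptidoglycan recognition proteins and inflammasome genes, 9 were kept. With ethanol 2.11% of all kept genes were at least 2-fold lower and 1.17% higher, and with acetaldehyde 0.212% and 0.0289%. Beside these shares, 0 of the 9 were 2-fold apart with either exposure, which says little for 9 genes. Their median was -0.13 with ethanol and 0.08 with acetaldehyde, and these turned to 0.02 and -0.34 against the other experiment's control. PYCARD, the inflammasome adaptor ASC, had 522 with ethanol, against 883 in control 1. It had 291 with acetaldehyde, against 428 in control 2, so that it was lower in both pairs (-0.76 and -0.56). RIPK2, the kinase of NOD1 and NOD2, was at -0.35 and 0.08, the inhibitor of apoptosis family sensor NAIP at 0.58 and 0.13, and the protease CASP1 at -0.17 and -0.49. PYCARD was also 2.06-fold, RIPK2 1.96-fold and CASP1 1.94-fold lower in control 2 than in control 1, and NAIP was 1.97-fold higher. Against control 2 the ethanol difference turned to 0.29 for PYCARD, 0.62 for RIPK2, 0.78 for CASP1 and -0.41 for NAIP. NAIP passed the filter with acetaldehyde alone (164) and CASP1 in control 1 alone (158). Lower values of these genes elsewhere were partly fixed by the filter. NOD2, too dim to be kept, had 56.6 with ethanol, against 117 in control 1 (2.07-fold lower). It had 115 with acetaldehyde, against 139 in control 2 (1.21-fold lower).

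All 21 listed NF-kB, C/EBP and IL-17 receptor components were kept. With ethanol 2.11% of all kept genes were at least 2-fold lower and 1.17% higher, and with acetaldehyde 0.212% and 0.0289%. Beside these shares, 0 of the 21 were at least 2-fold apart in either exposure pair, which says little for 21 genes. Their median was 0.03 with ethanol, which turned to -0.02 after centring and -0.11 against control 2, and -0.07 with acetaldehyde, which turned to 0.09 against control 1. NFKBIZ, an NF-kB cofactor needed for LCN2 induction, had 134 with ethanol, against 225 in control 1. It had 254 with acetaldehyde, against 298 in control 2 (log2 differences of -0.74 and -0.23). BCL3, a nuclear member of the same inhibitor family, was at -0.77 and -0.32, and the transcription factor CEBPD at -0.50 and -0.49. TNFAIP3, the NF-kB-induced inhibitor A20, was higher with ethanol (0.93) and close to control 2 with acetaldehyde (0.05), but the controls stood 1.91 apart for it. For CEBPD the controls stood 1.07 apart, and its acetaldehyde difference turned to 0.58 against control 1. That of NFKBIZ turned to 0.18. Between the controls, 2 of the 21 were at least 2-fold higher in control 2 and 1 lower, against 4.25% and 4.85% of all kept genes.

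Of 25 other antimicrobial peptide and protein genes, 19 were measured and 8 kept. With ethanol 6 of the 8 were lower and 2 at least 2-fold lower, against 42.2% and 2.11% of all kept genes. The median of the 8 was -0.42, which was -1.97 against control 2. With acetaldehyde 5 of the 8 were lower and 1 at least 2-fold lower, against 49.3% and 0.212%. Their median was -0.61, which turned to 0.77 against control 1. S100A8, the partner of S100A9, had 1129 with ethanol, against 3973 in control 1. It had 4748 with acetaldehyde, against 6998 in control 2. S100A7 (psoriasin) was lower in both pairs, at -0.81 and -1.03, yet 3.58-fold higher in control 2 than in control 1. CCL20, a chemokine with antimicrobial activity, was higher in both, at 0.93 and 0.42. It was dim in the ethanol pair (90.7 with ethanol, against 47.6 in control 1) and 5.77-fold higher in control 2 than in control 1, so that against control 2 the ethanol difference turned to -1.60. Among these genes 7 of 8 stood above control 1 in control 2 (median 1.17), and 4 of 8 by at least 2-fold. The shares of all kept genes were 54.5% and 4.25%. S100A7A (2.68) and CCL20 (2.53), both among these 4, passed the filter on the acetaldehyde and control 2 arrays alone. Their lower values in control 1 were thus partly fixed by the filter. The list was written with earlier results of these data known, so nothing is read from the excess.

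Of 18 other WAP-domain and neighbouring genes of chromosome 20, 16 were measured and 2 kept, WFDC12 and WFDC2. WFDC2, a WAP-domain protein of epithelial secretions, had 241 with ethanol, against 335 in control 1. It had 327 with acetaldehyde, against 509.7 in control 2, so its differences (-0.48 and -0.64) were of like size in both pairs.

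Among 12 proteases and partners of elafin and SLPI, 9 were kept, with a median of -0.08 with ethanol and -0.15 with acetaldehyde, the second turning to 0.21 against control 1. TGM1, keratinocyte transglutaminase, which links elafin into the cornified envelope, had 311 with ethanol, against 2416 in control 1. It had 218 with acetaldehyde, against 434 in control 2. TGM1 was 5.56-fold lower in control 2 than in control 1, whereas PI3 was 1.31-fold lower there. TGM2, tissue transglutaminase, went the other way, at 2.50 and 0.59, but control 2 exceeded control 1 by 4.98-fold, and the ethanol culture was 1.14-fold above control 2. TGM5 was at -1.06 and -0.36, but it too passed the filter in control 1 alone (177). ELANE, the elastase that both inhibitors block, had intensities of 183 with ethanol, 214 in control 1, 248 with acetaldehyde and 275 in control 2.

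Of 14 partners of lipocalin 2 and other lipocalins, 2 were kept. SLC22A17, a receptor for lipocalin 2, was at -0.34 with ethanol and -0.13 with acetaldehyde, and LCN1 at -0.04 and -0.20. LCN1 passed the filter in control 2 alone (170.1), so that lower values elsewhere were partly fixed by the filter. The median of the 2 genes, -0.17 with acetaldehyde, turned to 0.03 against control 1. MMP9, which forms a complex with lipocalin 2, was too dim to be kept.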

How the data were processed

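The deposited table holds the authors' linear intensity of 33297 probe sets on each array (3.13 to 22858), made by RMA per the submitters' processing notes; the program behind it is not given in the sources used here. Columns of other samples numbered 0. Here log2 was taken with no offset, and differences between arrays were computed in Python 3.11.15 with pandas 2.3.3. Of the probe sets, 19460 carried 1 gene symbol in the platform annotation, 1754 several and 12083 none; those with 1 symbol were used, the brightest per gene, and each of the 7 genes had 1. Genes were kept at an intensity of 155 or more (log2 7.28) on any array. For a gene that passed on only some of the arrays, lower values on the others were partly fixed by the filter. For 10364 of 10373 kept genes the identifier and symbol matched RefSeq. Identical values in 77 and 38 probe sets within the pairs, against 0 or 1 across them, point to separate scaling of the pairs.

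With 1 array per group no test was made, and the arrays carry no read depth. The genes, lists and rules were chosen with earlier results of these data known. Named are the 7 genes, the 3 largest ethanol and 2 largest acetaldehyde differences of each list, the 3 nearest patterns and 2 measured neighbours on each side, which the rule names where kept; dim neighbours and names picked by role or family were added after values were seen. The computation of differences and counts was tested on simulated data. Promoter windows were aligned globally (match 1, mismatch -1, gap opening -3, extension -1). Alternatives were scaling the 4 arrays together by quantiles, an offset of 32, centring, the mean of all probe sets, a 1.5-fold threshold, no filter on dim genes and the other experiment's control. Figures were drawn with matplotlib 3.10.9.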

Additional observations from a re-analysis of the deposited data

Results flagged for a closer look

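CD14 was higher with ethanol than in control 1 (0.60 in log2) and lower with acetaldehyde than in control 2 (-0.61), so the differences stood 1.21 apart and had opposite signs. With 1 array per group this contrast was not tested. The gap between the controls, 0.56, was nearly as large as either difference.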

How the results depend on the processing

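Of 98 alternative values of single-gene differences, 0 changed sign and 4 moved by 1.5-fold or more. The 21 values from the mean of all probe sets could not move, as each gene had 1 probe set. The 21 values with an offset of 32 could not change sign. All 4 moves of that size came with the other experiment's control. TLR2 was then at 1.35 with ethanol and 1.40 with acetaldehyde, and PGLYRP3 at -2.52 and -3.17. CD14 moved by slightly less than 1.5-fold, yet came to 0.04 with ethanol (from 0.60) and -0.05 with acetaldehyde (from -0.61). LCN2 with acetaldehyde came to -0.29 (from -0.56). Among the counts, a 1.5-fold threshold put 2 genes higher with ethanol in place of 1, CD14 being added. Against control 1, acetaldehyde had 1 gene at least 2-fold higher (TLR2) in place of 0, and 2 at least 2-fold lower in place of 3, since PGLYRP4 was at -0.45. The count at least 2-fold lower with ethanol stayed at 4 against control 2, but LCN2 (-1.02) came in and SLPI (-0.68) fell out. Control 2 had 0 genes at least 2-fold above control 1, in place of 1, with all arrays scaled together or with an offset of 32. With that offset PGLYRP4 was under 2-fold in both pairs (-0.90 with ethanol, -0.83 with acetaldehyde). Without the filter on dim genes, 0.0814% of genes were at least 2-fold higher with acetaldehyde, against 0.0289%, and 2.98% were at least 2-fold lower in control 2, against 4.85%. With all arrays scaled together and the filter applied, 0.0585% were at least 2-fold higher with acetaldehyde. Leaving out a replicate was not possible with 1 array per group. No paired analysis was possible because each group has 1 array. PGLYRP4, LCN2 and the ethanol value of PGLYRP3 lie near or below the filter intensity, which limits how well their sizes are known.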
